A study of Mus musculus with 6 samples.

Results

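The homeobox and developmental transcription factors on the array were examined in mouse hypothalamus. Probes were taken by their platform gene symbol, which had to name a gene of the Hox, Lhx, Pax, Pou, Sox, Nkx, Dlx, Irx, Pitx, Otx or Fox families or a sine oculis homolog such as Six6. This rule, which reads names and no measured values, found 106 of the 10080 probes on the array, called members below. They stood for 105 of the 8726 genes with a probe of 1 symbol, because Sox7 had 2 probes. All 106 had an Entrez identifier found in RefSeq (mouse, GRCm38.p6), where 0 symbols differed. The largest families were Hox with 26 probes, Fox with 23, Sox with 14 and Nkx with 11. Pou had 7 probes, Irx and Pax had 6 each, Dlx 4, the sine oculis homologs (Six2, Six4, Six5 and Six6) 4, Lhx 3 and Pitx 2, and no Otx probe was found. The rule also took Hoxd3os1 and Sox6os, which are transcripts from the opposite strand of developmental genes, and Pou2af1, a coactivator that binds POU factors and has no homeodomain of its own.

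Homeobox genes encode transcription factors with a homeodomain, a small DNA-binding fold, and many of them set the identity of body segments and brain regions in the embryo. Hox genes lie in clusters and pattern the hindbrain, spinal cord and trunk, while NKX, LHX, DLX and POU factors and the sine oculis homologs pattern the forebrain and its neurons. Fox proteins carry the forkhead domain, Sox proteins the HMG box and Pax proteins the paired domain. In the adult hypothalamus some of these factors persist in mature neurons, glia and tanycytes, the cells that line the floor of the third ventricle.

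RNA came from the hypothalamus of male mice of strain DBA/1, which develops arthritis after collagen injection, at 8 weeks of age when injected. For the collagen group, type II collagen (100 ul) was mixed with complete Freund's adjuvant (100 ul) and injected into the skin, and the control group received 200 ul of the adjuvant. Both groups were given lipopolysaccharide (LPS) at day 24, so the comparison is between LPS-treated mice, and the difference in adjuvant volume cannot be told apart from collagen. Each of 3 biological replicates was measured on 2 two-colour arrays with the dyes exchanged, which gave 6 arrays. The series title calls the mice arthritic; arthritis scores were not analysed here. The labels do not say whether a replicate was 1 mouse or a pool, so p-values cover the spread between these samples, which may be partly technical.

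A probe was counted as having signal in a channel when its background-subtracted intensity was above 0 in at least 1 scan. It had a log ratio on an array when both channels were above 0 in the same scan. Between 4650 and 8562 spots had a ratio on an array. Log ratios below are log2 of collagen over control after loess smoothing on intensity, so a positive value means more signal from the collagen sample. The files do not name the dyes; A was taken for Cy3 and B for Cy5, in the order of the labels, and every direction would turn if they were the other way round. The replicate 1 array whose collagen sample carried Cy3 had far wider ratios than the others, with an SD of 1.73 over the tested members against 0.365 to 0.490 on the other 5 arrays. The mean of each tested member is therefore given without replicate 1 as well. Of 10 measured hypothalamic peptide genes, 5 had a ratio on 6 arrays, namely those for oxytocin (Oxt), melanin-concentrating hormone (Pmch), galanin (Gal), gonadotropin-releasing hormone (Gnrh1) and CART (Cartpt). The genes for vasopressin (Avp) and orexin (Hcrt), which also mark this tissue, had a ratio on 3 arrays each. The cortical markers Fezf2 and Neurod6 and the pituitary marker Pitx1 had a ratio on 6 arrays too, and what they contribute was not tested.

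The first question was which of these factors gave signal in hypothalamus. A ratio on 6 of 6 arrays was found for 26 members (24.5%), against 2316 of all 10080 probes (23.0%). Transcription factor probes were thus measured about as often as the array as a whole. A ratio on 4 or more arrays was found for 53 members (50%), against 46.2% of all probes. At the other end, 5 members had no ratio on any array (4.72%, against 4.39% of all probes), namely Hoxb5, Hoxc6, Hoxd8, Irx6 and Pou2af1. The most common outcomes were a ratio on 2 arrays and a ratio on 6 arrays, with 26 members each. Of the members with a ratio on 2 arrays, 17 had it on both arrays of replicate 3, and 11 members had their only ratio on the collagen-in-Cy3 array of replicate 3. On that array 90 members had a ratio, against 53 to 59 on each of the other 5.

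**Figure D1:**
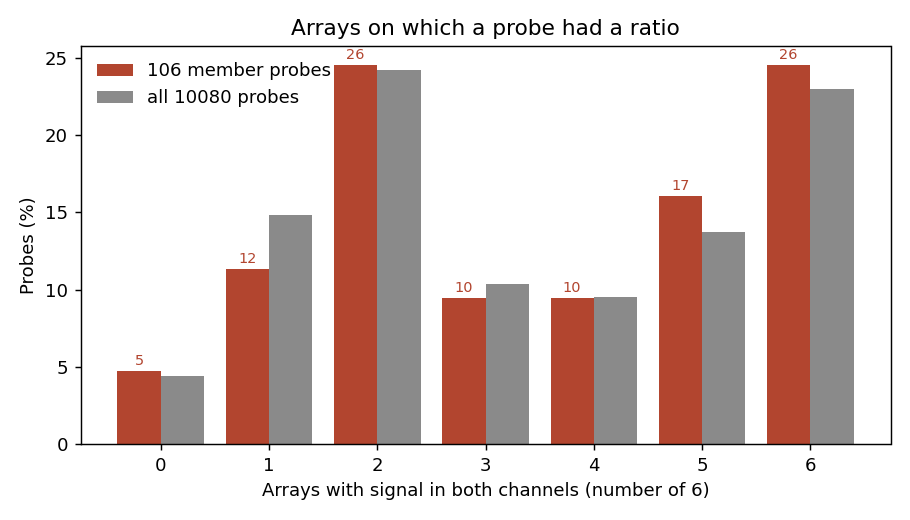
Share of probes in percent (vertical axis) by the number of arrays, from 0 to 6, on which the probe had signal in both channels of the same scan (horizontal axis). Red bars stand for the 106 member probes, with their number above the bar, and grey bars for all 10080 probes. The members follow the whole array closely, with 26 members on 6 arrays (24.5%, against 23.0% of all probes).

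Signal differed more between channels than between groups. Channel A had signal on all 6 arrays for 94 members and channel B for 27. The channels carry collagen and control RNA in turn, so this difference falls on both groups. Over arrays, channel A had signal for 102 to 105 members and channel B for 53 to 90. Between the collagen and the control sample, 0 members differed by 3 or more arrays in the number with signal (0.486% of all probes did). The number of arrays with signal was equal in both samples for 60 members, 1 higher in collagen for 11, 1 lower in collagen for 29 and 2 lower in collagen for 6. Over all probes the split was close to this, with 53.6% equal, 12.2% 1 higher, 27.1% 1 lower and 5.54% 2 lower. Under a stricter rule, with both channels above 2 times the local background on 6 arrays, 1 member remained (0.943%), against 324 of all probes (3.21%). That member was Nkx1-2, a homeobox gene of the caudal neural plate in the embryo. Its foreground was 4.16 to 23.2 times the local background in collagen samples and 4.03 to 20.05 times in control samples, the only member above 2 times everywhere. In the other tested members the median foreground was 1.79 to 4.09 times background in collagen samples and 1.76 to 4.63 times in control samples, so most of the ratios below come from dim spots.

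Grouped by what the genes are known for, hypothalamic factors did not have the highest share. Of 17 probes for factors that pattern or mark the hypothalamus, 2 had a ratio on 6 arrays (11.8%), namely Nkx2-2 and Lhx2. Of 31 probes for hindbrain and spinal cord factors, which include all 25 Hox genes, 6 had one (19.4%). Both shares lie below the 23.0% of all probes. The other lists gave 1 of 3 pituitary factors, 1 of 4 telencephalic and retinal factors, 1 of 6 glial factors, 2 of 14 factors of endoderm, mesoderm, germ cells or immune cells, and 4 of 12 broadly expressed forkhead, POU and Sox factors (33.3%). Of the 27 members in none of these lists, 11 had a ratio on 6 arrays (40.7%). The lists share a few genes, and no test was made of their shares. Having a ratio, of either sign, says that both channels exceeded their background on that array. Whether the signal came from the named gene or from a related one was not tested.

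**Figure D2:**
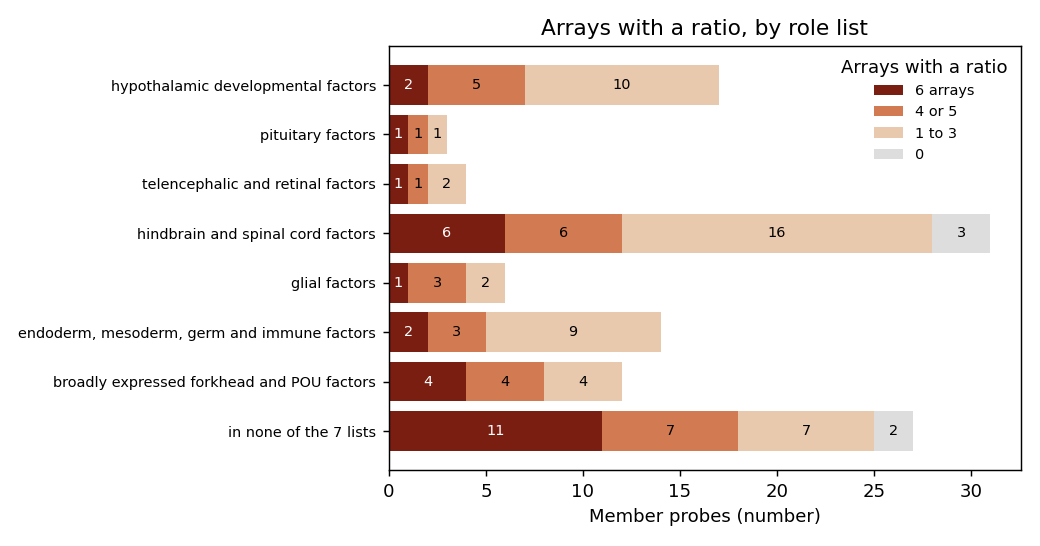
Number of member probes (horizontal axis) in each of 7 lists of known roles and outside them (rows), split by the number of arrays with a ratio: 6, 4 or 5, 1 to 3, or 0. Hypothalamic factors had 2 of 17 probes on 6 arrays and hindbrain and spinal cord factors 6 of 31.

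Of the 17 hypothalamic probes, 5 had a ratio on 4 or 5 arrays and 10 on 1 to 3. A ratio on 1 to 5 arrays was also the most common outcome over all probes (72.6%). Nkx2-1, the master factor of the ventral hypothalamus, Six6, a factor of the eye and hypothalamus, Sox2, a factor of neural stem cells and tanycytes, and Irx5 each had a ratio on 5 arrays. Pou3f2, needed for the neurons that make oxytocin, vasopressin and corticotropin-releasing hormone, had a ratio on 4. Lhx5 and Dlx6 had 3 each. Dlx1, Foxd1, Irx3, Pax6, Sox3 and Sox14 had 2 each, and Foxb1 and Pou3f3 had 1 each. Among Hox genes, 4 of the 25 had a ratio on 6 arrays, and all 4 were in the Hoxb and Hoxc clusters. Of the 8 Hoxa genes 2 were on 4 or 5 arrays (Hoxa2 on 5 and Hoxa4 on 4) and 6 on 1 to 3 (Hoxa3, Hoxa5, Hoxa6, Hoxa10, Hoxa11 and Hoxa13). Of the 6 Hoxd genes 5 were on 1 to 3 arrays (Hoxd1, Hoxd9, Hoxd10, Hoxd11 and Hoxd12). Hoxb7 and Hoxc4 were measured on 5 arrays, Hoxb8 on 2, and Hoxb13 and Hoxc9 on 1.

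Forkhead factors were the family with the lowest share on 6 arrays after the Irx genes, of which 0 of 6 had one. They had 2 of 23 (8.70%), Foxd3 and Foxj2, while 7 were on 4 or 5 arrays and 14 on 1 to 3. Foxd4, Foxe3, Foxp4 and Foxq1 had a ratio on 5 arrays and Foxa3, Foxc2 and Foxf1 on 4. Foxp3, the factor of regulatory T cells, had a ratio on 3. Foxo3 and Foxo4, which act downstream of insulin signalling, had 2 each, as did Foxd2, Foxi1, Foxj1, a factor of ciliated ependyma, Foxk1 and Foxn3. Foxb2, Foxf2, Foxl1 and Foxn1, the thymus factor, had 1 each. Pitx had both of its probes on 6 arrays, Nkx 5 of 11, Pou 3 of 7, Dlx 2 of 4 and Sox 4 of 14. In the Sox family, Sox1, Sox5 and the oligodendrocyte factor Sox10 had 5 arrays, Sox11 had 4, and Sox9, an astrocyte factor, and the second Sox7 probe had 2.

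The remaining members were spread over the same range. Pax2, of the midbrain-hindbrain boundary and kidney, Nkx6-2, of oligodendrocytes, and Six2, of the kidney, had a ratio on 5 arrays. Lhx4, of the pituitary, Pou6f1, Irx1 and the antisense Hoxd3os1 had 4. Irx2, the antisense Sox6os, Nkx2-3, of the gut wall and spleen, and Nkx2-5, of the heart, had 3. Nkx3-2, Nkx6-1, of motor neurons and beta cells, Pax5, of B cells, Pax9 and Six4 had 2, and Irx4, of the heart ventricle, had 1.

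The second question was whether collagen changed these genes. No member passed the test: 0 of 26 were called at an adjusted p under 0.05 in limma (Benjamini-Hochberg over 2316 probes, two-sided), as were 0 of all 2316 probes (0%). The smallest adjusted p was 0.872 among the members and over all probes. At an unadjusted p under 0.05 there was 1 member, Hoxb9, against 25 of 2316 probes (1.08%). The log2 ratio was positive for 10 members and negative for 16, against a positive share of 33.7% over all tested probes. The median log2 ratio was -0.09 over the members and -0.09 over all tested probes. The median half-width of the unadjusted 95% interval was 0.447 for a member and 0.452 for any probe. For a typical member a change smaller than that could not be told from 0 even without adjustment. A call after adjustment over 2316 probes needed a larger one. Errors after ± below are moderated SE from limma, which draw on the variance of all tested probes. They can be larger or smaller than the spread of a gene's own replicates. In whole tissue, fewer cells of a type and less RNA per cell cannot be told apart.

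**Figure D3:**
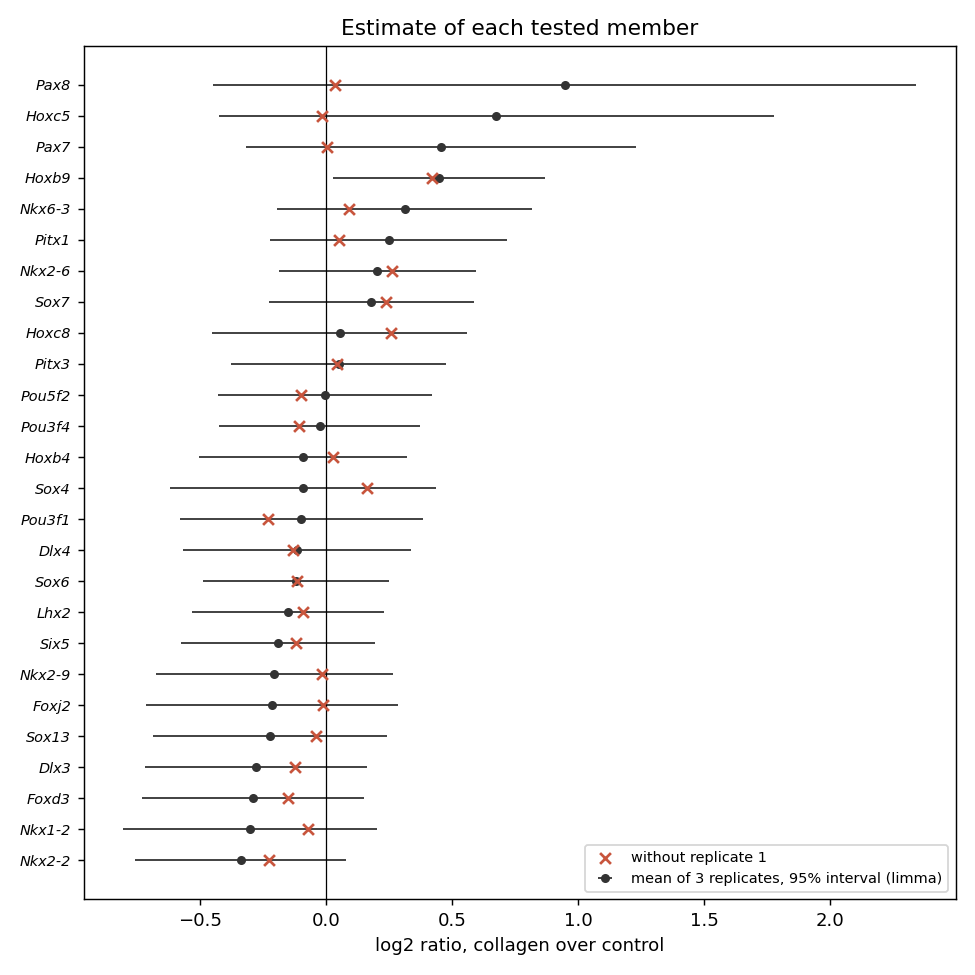
Mean log2 ratio of collagen over control (horizontal axis) for each of the 26 tested members (rows), as dots with 95% intervals from limma over 3 replicates, and the mean without replicate 1 as crosses. Hoxb9 alone has an interval that leaves out 0, from 0.03 to 0.87, and the crosses of Pax8, Hoxc5 and Pax7 lie at or near 0.

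Among the hypothalamic factors, Nkx2-2 is known from the ventral neural tube and from maturing oligodendrocytes, and Lhx2 is a factor of the forebrain, retina and tanycytes. Nkx2-2 log2 ratios with collagen in Cy5 were 0.18, 0.11 and -0.57 in replicates 1, 2 and 3, and with collagen in Cy3 they were -1.32, -0.32 and -0.12. Its replicate means were all negative (-0.57, -0.11 and -0.34), but 2 of 6 arrays were positive. The mean was -0.34 ± 0.17 (SE, n = 3, limma unadjusted p = 0.0941, adjusted p = 0.872), and -0.23 without replicate 1. Lhx2 had log2 ratios of -0.01, -0.23 and -0.19 with collagen in Cy5 and of -0.53, -0.05 and 0.09 with collagen in Cy3. These values lay close together and 5 of 6 were negative, with a mean of -0.15 ± 0.15 (SE, n = 3, limma adjusted p = 0.872) and -0.09 without replicate 1. A single sign in all 3 replicates, as in both genes, occurred in 12 of 26 members, against 23.6% of all tested probes.

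The sequences just upstream of the start of Nkx2-2, Lhx2 and Hoxb4 are printed as examples of the promoters of measured members, 2 hypothalamic and 1 Hox. They are the 250 bases before the gene start in RefSeq on assembly GRCm38.p6, 5′ to 3′ on the gene's strand. Capitals mark ATTA, the core letters bound by many homeodomains, searched on both strands (TAAT on the other). Nkx2-2 lies at chr2:147186403-147186652 on the minus strand, Lhx2 at chr2:38339031-38339280 on the plus strand and Hoxb4 at chr11:96318017-96318266 on the plus strand.
Nkx2-2: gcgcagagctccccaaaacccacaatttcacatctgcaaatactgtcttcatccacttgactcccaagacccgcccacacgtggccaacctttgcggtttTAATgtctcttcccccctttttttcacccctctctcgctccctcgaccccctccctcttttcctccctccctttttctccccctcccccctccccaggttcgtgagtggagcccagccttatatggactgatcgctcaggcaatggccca
Lhx2: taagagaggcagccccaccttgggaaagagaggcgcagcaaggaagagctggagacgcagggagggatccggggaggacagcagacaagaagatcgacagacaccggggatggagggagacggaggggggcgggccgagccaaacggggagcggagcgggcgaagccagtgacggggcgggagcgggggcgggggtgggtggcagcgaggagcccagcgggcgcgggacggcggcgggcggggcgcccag
Hoxb4: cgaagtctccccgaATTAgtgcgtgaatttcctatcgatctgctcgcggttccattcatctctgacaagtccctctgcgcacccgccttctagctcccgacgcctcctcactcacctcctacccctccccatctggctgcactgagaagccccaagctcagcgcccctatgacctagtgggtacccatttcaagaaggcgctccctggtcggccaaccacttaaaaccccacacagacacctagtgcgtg
The Lhx2 stretch was the richest in G and C, at 72.8% with 25 CpG dinucleotides, against 56.4% with 8 in Nkx2-2 and 58% with 14 in Hoxb4. Promoters were found for 73 of the 105 genes, with 1 start per gene, the one farthest upstream. Their median GC content was 62% against 52% over all 27025 promoters, and their median number of CpG dinucleotides was 14 against 6. Over the 6913 genes of array probes with a promoter these medians were 58% and 13. ATTA on either strand was in 40 of the 73 promoters (54.8%), against 55.4% of all promoters and 44.4% of those of array genes. In the Hox genes it was in 13 of 16 (81.3%). CAAGTG on either strand, the core letters known for NKX2 factors, was in 6 of 73 (8.22%), the Nkx2-2 stretch among them, against 11.6% of all promoters. A match is a stretch of letters and no measure of binding.

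Hindbrain and spinal cord factors gave the largest positive values. Of the 6 tested members, 5 had a positive mean and 1 a negative one, with a median log2 ratio of 0.45, against -0.09 over all tested probes. Without replicate 1 that median was 0.03, with 5 positive and 1 negative, so its size rested on replicate 1. En1, on the same list but outside the naming rule, had a negative mean of -0.33. The sign of a mean turned for Hoxb9 (-0.054) and Hoxb4 (0.014) with smoothing within printing blocks, for Hoxc8 (-0.016) with median centring, and for Hoxb4 (0.027) and Hoxc5 (-0.017) without replicate 1. Hoxb9, a gene of the thoracic spinal cord and trunk, had log2 ratios of -0.02, 0.24 and 1.06 in replicates 1, 2 and 3 with collagen in Cy5 and of 1.02, 0.15 and 0.23 with collagen in Cy3. Thus 5 of 6 arrays were positive, 2 of them near 1 and the sixth near 0. Its mean was 0.45 ± 0.17 (SE, n = 3), a 1.36-fold ratio, with a limma unadjusted p of 0.0405 and an adjusted p of 0.872. It was 0.42 without replicate 1, but -0.05 when the smoothing was done within printing blocks. In the authors' deposited value table, of unstated base and direction, 1 of its 5 values was positive. There the collagen-in-Cy3 array of replicate 1 had -0.40, against 1.02 here.

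Pax8, a factor of thyroid and kidney and of the mid-hindbrain in the embryo, had the highest mean of all members. Its log2 ratios were 0.74, 0.60 and 0.53 with collagen in Cy5, against 4.80, -0.47 and -0.51 with collagen in Cy3, so one array set the mean. That mean was 0.95 ± 0.56 (SE, n = 3, limma adjusted p = 0.872), and 0.04 without replicate 1. Pax7, a factor of the dorsal neural tube and muscle satellite cells, gave -0.04, 0.10 and 0.02 with collagen in Cy5 and 2.76, -0.36 and 0.25 with collagen in Cy3. Again the same array stood apart, and the mean of 0.46 ± 0.31 (SE, n = 3) became 0.0038 without replicate 1.

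Hoxc5, a gene of the neck region of the spinal cord, followed the same course, with -0.06, 0.23 and -0.50 with collagen in Cy5 and 4.18, 0.13 and 0.07 with collagen in Cy3. Its mean was 0.68 ± 0.44 (SE, n = 3), and -0.02 without replicate 1. Hoxc8, a gene of the forelimb level of the spinal cord, had both signs in each orientation, with 0.56, 0.38 and -0.30 with collagen in Cy5 and -1.27, -0.24 and 1.19 with collagen in Cy3. Its mean was 0.05 ± 0.20 (SE, n = 3), and 0.26 without replicate 1. Hoxb4, known from the hindbrain and blood stem cells, was positive on each array with collagen in Cy5 (0.78, 0.64 and 0.06) and negative on each with collagen in Cy3 (-1.44, -0.46 and -0.14). Its sign thus differed between the orientations in all 3 replicates, although the channel term had an adjusted p of 0.391 in limma, and the mean was -0.09 ± 0.17 (SE, n = 3; 0.03 without replicate 1). The 4 tested Hox genes therefore did not share a direction over arrays.

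**Figure D4:**
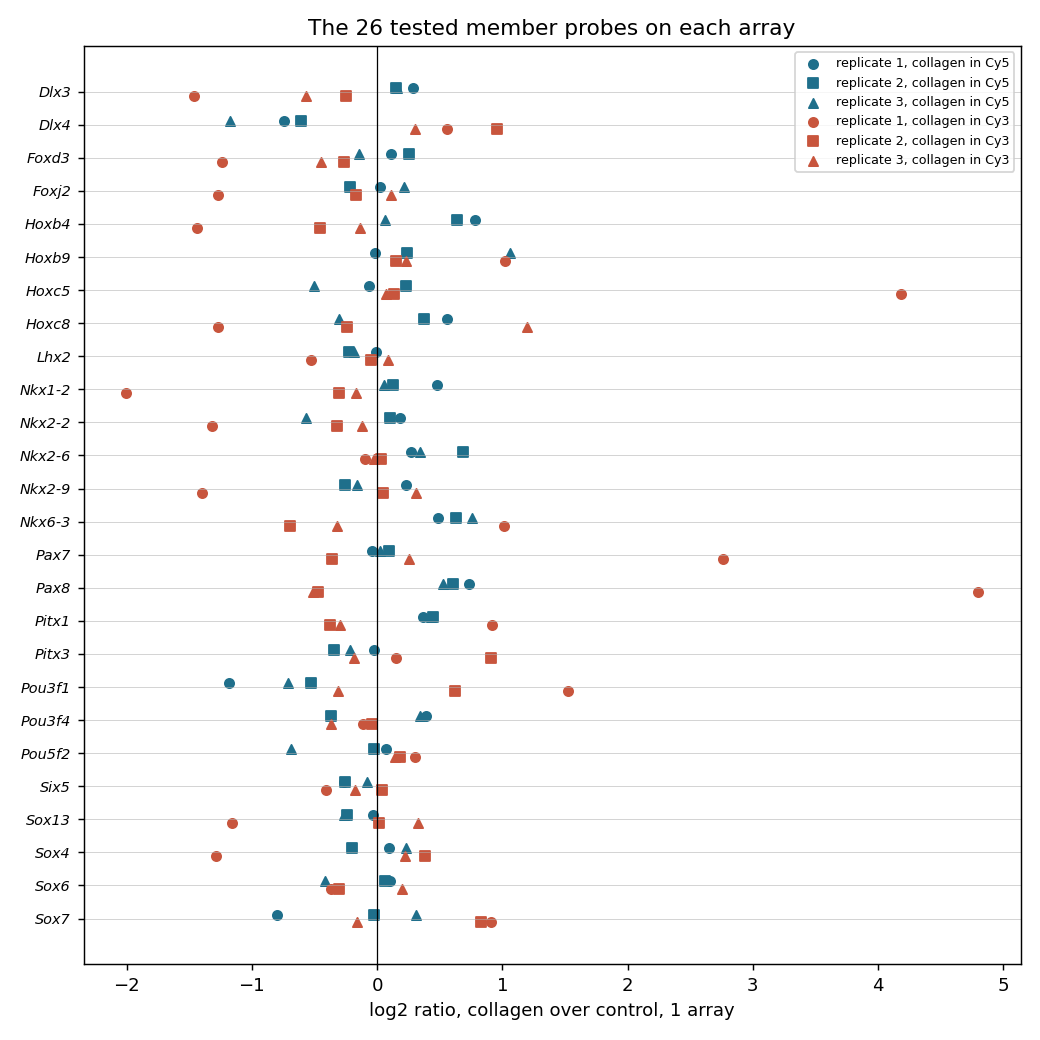
Log2 ratio of collagen over control on each array (horizontal axis) for the 26 tested members (rows). Colour gives the dye of the collagen sample and the shape gives the replicate. The red circles, from the collagen-in-Cy3 array of replicate 1, reach from -2.003 for Nkx1-2 to 4.80 for Pax8, while the other 5 arrays span -1.18 to 1.19.

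The position on the array moved with these values. On the collagen-in-Cy3 array of replicate 1, the median log2 ratio of tested members was -0.25, -1.27, -1.27 and 0.92 in printing block columns 1 to 4, against -0.33, -0.70, -0.79 and 0.57 over all tested probes there. Hoxb9, Pax7, Pax8 and Pitx1 were printed in column 4, as were Dlx4, Pou5f2 and Sox6, which had 0.56, 0.30 and -0.37 on that array. With smoothing within printing blocks, the means in column 4 became -0.05 for Hoxb9, 0.40 for Pax7, 0.44 for Pax8 and -0.22 for Pitx1. Those of Dlx4, Pou5f2 and Sox6 became -0.01, 0.11 and -0.27. Hoxc5, with 4.18 on the collagen-in-Cy3 array of replicate 1, was in column 3, and its mean became 0.89 with that smoothing. Whether position set these values was not tested. Saturated pixels were present in at least 1 scan for 8 tested members on that array, Hoxc5, Pax7 and Pax8 among them, and for 0 to 14 on the others.

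The Nkx genes outside the hypothalamic list were also examined. Nkx1-2 was positive on the 3 arrays with collagen in Cy5 (0.48, 0.13 and 0.05) and negative on those with collagen in Cy3 (-2.003, -0.30 and -0.17). Its sign also differed between the orientations in all 3 replicates, with a channel term at an adjusted p of 0.519 in limma. The collagen mean was -0.30 ± 0.20 (SE, n = 3) and -0.07 without replicate 1. Nkx6-3, known from the stomach and the hindbrain, had 0.49, 0.63 and 0.75 with collagen in Cy5 and 1.02, -0.70 and -0.32 with collagen in Cy3, and Nkx2-6, a factor of the pharynx and heart, had 0.27, 0.69 and 0.35 against -0.09, 0.03 and -0.02. Both were higher with collagen in Cy5 in replicates 2 and 3, and their means were 0.31 ± 0.20 and 0.20 ± 0.16 (SE, n = 3 each; 0.09 and 0.26 without replicate 1). Nkx2-9, of the floor of the neural tube, had 0.23, -0.26 and -0.16 with collagen in Cy5 and -1.40, 0.04 and 0.31 with collagen in Cy3, with a mean of -0.21 ± 0.19 (SE, n = 3) that was -0.02 without replicate 1.

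The Pitx genes had positive means close to or below their errors, and that of Pitx1 turned negative with smoothing within printing blocks. Pitx1, which is active throughout pituitary development, had log2 ratios of 0.36, 0.44 and 0.43 with collagen in Cy5, against 0.92, -0.37 and -0.29 with collagen in Cy3. Its mean was 0.25 ± 0.19 (SE, n = 3) (0.05 without replicate 1, and -0.22 with that smoothing). Pitx3, needed by midbrain dopamine neurons and the lens, had -0.03, -0.34 and -0.21 with collagen in Cy5 and 0.15, 0.91 and -0.19 with collagen in Cy3, around a mean of 0.05 ± 0.17 (SE, n = 3; 0.04 without replicate 1). Other pituitary genes gave no ratio on 6 arrays: Lhb and Tshb, the subunits of luteinising and thyroid-stimulating hormone, had 5 and Fshb had 2.

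The tested Pou and Dlx members were examined in the same way. Pou3f1, a factor of myelinating Schwann cells and cortical neurons, had -1.18, -0.53 and -0.71 with collagen in Cy5 and 1.52, 0.62 and -0.31 with collagen in Cy3, and its mean was -0.10 ± 0.19 (SE, n = 3; -0.23 without replicate 1). Dlx4 gave -0.74, -0.61 and -1.17 with collagen in Cy5 and 0.56, 0.95 and 0.30 with collagen in Cy3. Dlx3, a factor of placenta, skin and bone, ran the other way, with 0.29, 0.15 and 0.16 against -1.46, -0.25 and -0.57. The means of Dlx4 and Dlx3 were -0.12 ± 0.18 and -0.28 ± 0.18 (SE, n = 3 each), and both were -0.13 without replicate 1. The channel terms of Pou3f1, Dlx3 and Dlx4 missed the adjusted threshold. Pou3f4, of the inner ear and ventral forebrain, ranged from -0.37 to 0.39 and Pou5f2, a testis gene, from -0.69 to 0.30, with means of -0.03 ± 0.16 and -0.0039 ± 0.17 (SE, n = 3 each; -0.11 and -0.10 without replicate 1).

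Sox and Fox members and Six5 had mostly small negative means, though that of Sox4 was 0.029 with median centring. The median over these 7 members was -0.19, against -0.09 over all tested probes, and it was -0.04 without replicate 1. Only 33.7% of all tested probes had a positive ratio, and the tested Pou, Dlx and Lhx members had negative means too. Six5, a muscle and lens factor, was negative on 5 of 6 arrays (-0.26, -0.25 and -0.08 with collagen in Cy5, and -0.40, 0.04 and -0.18 with collagen in Cy3), with a mean of -0.19 ± 0.16 (SE, n = 3; -0.12 without replicate 1). Sox6, of cartilage, interneurons and oligodendrocyte precursors, had replicate means of -0.13, -0.12 and -0.11, the closest of any member, although single arrays ran from -0.41 to 0.20. The near equality of those means thus rests on pairs of arrays that differed in sign. The mean was -0.12 ± 0.15 (moderated SE, n = 3), and -0.11 without replicate 1. That SE is larger than the spread of the replicate means, since it draws on the variance of all tested probes. Sox4, a factor of differentiating neurons, had 0.09, -0.20 and 0.23 with collagen in Cy5 and -1.29, 0.38 and 0.22 with collagen in Cy3, with a mean of -0.09 ± 0.21 (SE, n = 3) and 0.16 without replicate 1. Sox13 ranged from -1.16 to 0.33 around a mean of -0.22 ± 0.19 (SE, n = 3), and -0.04 without replicate 1. The tested Sox7 probe, for an endothelial factor, ranged from -0.80 to 0.91 around 0.18 ± 0.16 (SE, n = 3), and 0.24 without replicate 1. The second Sox7 probe had a ratio in replicate 3 only, with -0.33 with collagen in Cy5 and -0.25 with collagen in Cy3. On those arrays the tested probe had 0.31 and -0.16. Foxd3, of the neural crest, ranged from -1.24 to 0.25 with a mean of -0.29 ± 0.18 (SE, n = 3; -0.15 without replicate 1). Foxj2 ranged from -1.27 to 0.22 with a mean of -0.22 ± 0.20 (SE, n = 3; -0.013 without replicate 1). The lowest value of Sox4, Sox13, Foxd3 and Foxj2 came from the collagen-in-Cy3 array of replicate 1.

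The dye orientation was compared directly. Within a dye-swap pair the collagen over control ratio had opposite signs for 19 of 26 members in replicate 1, 20 in replicate 2 and 17 in replicate 3 (73.1%, 76.9% and 65.4%, against 59.3%, 79.0% and 58.5% of all tested probes). Averaged over the arrays of each orientation, 4 members were positive in both, 6 negative in both and 16 opposite. The 4 positive in both were Hoxb9, Pax7, Pax8 and Pitx1. Those negative in both were Lhx2, Nkx2-2, Nkx2-9, Six5, Sox6 and Sox13. The collagen ratio had 1 sign on all 6 arrays for 0 members, against 0.777% of all tested probes. The ratio of channel B over channel A had 1 sign on all 6 arrays for 4 members, against 15.5% of all tested probes, namely Dlx3, Hoxb4 and Nkx1-2 with B higher and Dlx4 with B lower. The channel term reached an adjusted p under 0.05 in limma for 0 members, against 6 of 2316 probes (0.259%).

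**Figure D5:**
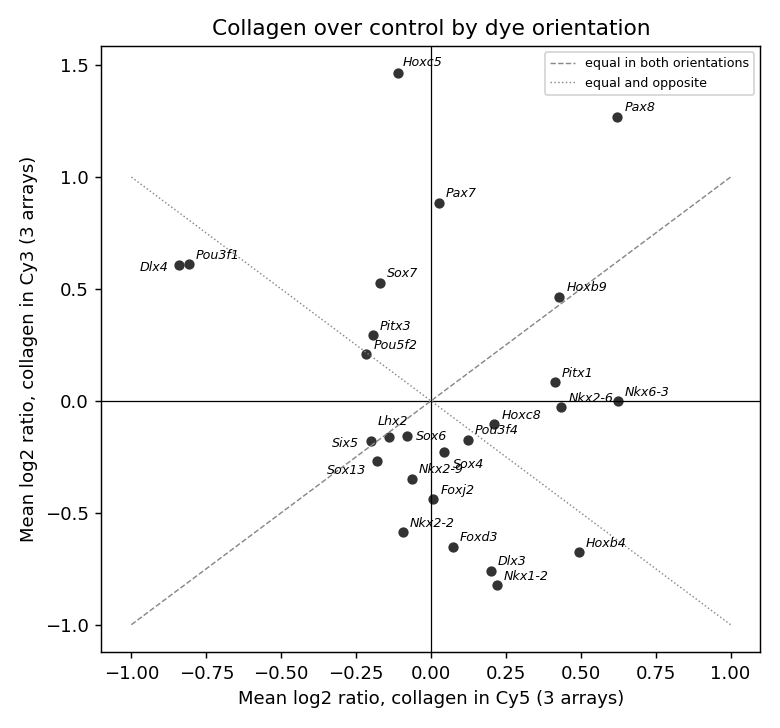
Mean log2 ratio of collagen over control over the 3 arrays with collagen in Cy5 (horizontal axis) and over the 3 arrays with collagen in Cy3 (vertical axis) for the 26 tested members. The dashed line marks equal values and the dotted line equal and opposite ones. Hoxb9 lies on the dashed line at about 0.43 and 0.47, while 16 members have opposite signs.

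The log ratios of the 3 replicates were weakly related. Across the 26 members Pearson's r was 0.24 between replicates 1 and 2, 0.07 between 1 and 3 and 0.08 between 2 and 3. Over all tested probes it was 0.16, -0.12 and -0.13. These are descriptions across genes, which share arrays and are not independent replicates.

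Members with a ratio on 4 or 5 arrays, 27 in number, were described apart because they did not enter the test. Of these, 1 had the same sign on every array that measured it. That one was Sox11, a factor of immature neurons, with -0.14, -0.17, -0.02 and -0.39. When a ratio on both arrays of 2 replicates was enough, 47 members and 4027 probes could be tested, and 0 were called in limma. Hoxb7 then had the smallest p of the 21 added members, with log2 ratios of 0.23, -1.53 and -0.80 with collagen in Cy5 and of -1.54 and -0.37 in replicates 2 and 3 with collagen in Cy3. The mean of those complete pairs was -1.06 ± 0.30 (moderated SE, n = 2, limma unadjusted p = 0.0145, adjusted p = 0.933). The replicate means of Hoxb7 lay far apart, at -1.53 and -0.58. Hoxb7 and Hoxb9, both of the Hoxb cluster, thus had opposite signs. For the hypothalamic factors the same fit gave -0.17 ± 0.23 for Nkx2-1, 0.15 ± 0.30 for Six6, 0.02 ± 0.22 for Sox2, -0.11 ± 0.21 for Pou3f2 and -0.16 ± 0.22 for Irx5 (SE, n = 2 each, limma). None of these differed from 0 beyond its error. The oligodendrocyte factor Sox10 gave 0.60 ± 0.30 and Foxa3, a liver and gut factor, 0.88 ± 0.44 (SE, n = 2 each), each with its high value in replicate 1, at 1.08 and 1.76.

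Values measured in few places were not comparable across genes. Six4, Pax5, Nkx2-5 and Nkx6-1 had log2 ratios of 5.91, 4.78, 4.04 and 4.00 on the collagen-in-Cy3 array of replicate 1. Elsewhere the same probes ranged from -0.29 to 0.53, on 1 or 2 arrays each.

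Developmental transcription factors that the naming rule leaves out were counted beside these. Of 65 such probes on the array, 7 had a ratio on 6 arrays (10.8%), namely En1, Fezf2, Lmx1a, Meis1, Neurod6, Olig2 and Tbx2. Their log2 ratio was positive for 1 and negative for 6, with a median of -0.14, and 0 were called in limma, with 0 at an unadjusted p under 0.05. En1, a factor of the midbrain and hindbrain, had the largest difference, at -0.33 ± 0.19 (SE, n = 3), followed by Neurod6 at -0.17, Meis1 at -0.15, Lmx1a at 0.14 and Fezf2 at -0.14.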

How the data were processed

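The files of each array held 3 repeat scans. Per the file headers, the authors deposited intensities of channels A and B with the background already taken off, local background intensities, spot areas in pixels and a saturation factor, a fraction from 0 to 1. The quantification software, the dye of each channel and the probe sequences are not given in the sources used here. For the alternatives, the value table deposited by the authors was treated as a score, a log ratio of unstated base and direction. Its columns correlated at 0.671 to 0.906 with collagen over control ratios smoothed within printing blocks, and their medians lay between -0.018 and 0.0015, so each was centred near 0.

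Log2 ratios were taken where both channels were above 0, smoothed by loess (span 0.3) per scan, averaged over scans without saturated ones where others existed, turned to collagen over control and averaged per dye-swap pair. Probes with a ratio on 6 arrays, and on 4 or more of them a channel above 1.5 times its local background, were tested against 0 with limma 3.58.1 in R 4.3.3 (lmFit, eBayes, two-sided, Benjamini-Hochberg, threshold 0.05). The background filter removed 0 probes. The fit was tested on simulated data. Figures used matplotlib 3.10.9. A spot above 0 in 1 channel only has no ratio, so detection is set largely by the weaker channel B. The number of arrays limits the precision.

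Members, role lists and tests were chosen with earlier results of these data known. Every member with a ratio on 6 arrays is named, as are others with signal in at least 1 channel on at least 4 arrays. Alternatives covered normalization, background, scans, filters, replicates, dye orientation, the replicate block, array position and the deposited table. Of the lists of cell type markers, hypothalamus had 5 of 10 probes on 6 arrays, neuron 1 of 5, astrocyte 2 of 4, oligodendrocyte 2 of 2, microglia 1 of 4, ependyma and tanycyte 3 of 5, choroid plexus 1 of 1, pituitary 1 of 4, thalamus 2 of 5, cortex 2 of 3, and striatum, T cell and B cell 0 of 1 each. Each array holds a collagen and a control sample of 1 replicate number, so every ratio is already a paired comparison, and the 2 arrays of a number are a dye swap.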

Additional observations from a re-analysis of the deposited data

Results flagged for a closer look

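In 8 of 26 tested members (30.8%), 1 of the 6 arrays stood apart from the others by a gap above Dixon's 95% critical share of the whole range, against 532 of 2316 tested probes (23.0%). Chance flags about 1 in 20 groups. For 7 of the 8 members it was the collagen-in-Cy3 array of replicate 1. The log2 ratio of collagen over control there was 4.80 for Pax8, 4.18 for Hoxc5 and 2.76 for Pax7. It was -2.003 for Nkx1-2, -1.40 for Nkx2-9, -1.29 for Sox4 and -1.27 for Foxj2. The nearest other array had 0.74 for Pax8, 0.23 for Hoxc5, 0.25 for Pax7, -0.30 for Nkx1-2, -0.26 for Nkx2-9, -0.20 for Sox4 and -0.21 for Foxj2. Pou5f2 stood apart on the collagen-in-Cy5 array of replicate 3, at -0.69 beside -0.03. The causes were not tested.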

How the results depend on the processing

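No member was called under any alternative run. Probes called over the whole array numbered 0, except for 27 on the arrays with collagen in Cy5 only, where dye and collagen cannot be told apart (7 of 32 members were under an unadjusted p of 0.05 there, against 402 of 2834 probes, or 14.2%). Members with a ratio numbered 18 with the first scan alone, against 26 with all scans. They numbered 1 with both channels above 2 times background and 47 with a ratio on both arrays of 2 replicates. The median log2 ratio of members, -0.09, became -0.0072 with smoothing within printing blocks, -0.30 under the stricter background filter (Nkx1-2 alone), -0.014 with centred replicates, 0.017 with collagen in Cy5 only, 0.00017 in the authors' deposited value table (base unstated) and -0.010 over 5 arrays, an alternative chosen after seeing the data. Leaving out a replicate in turn gave -0.14 to -0.017. With the replicate number as a random block over 6 arrays and a dye term, 0 probes were called, the smallest adjusted p was 0.833 and the median was -0.09. A slide or date block was not run, since the headers give none that holds over 1 array.

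Signs turned as follows, with causes not tested. Smoothing within printing blocks gave 0.011 for Dlx3, 0.014 for Hoxb4, -0.054 for Hoxb9, 0.057 for Nkx2-9, -0.22 for Pitx1 and 0.11 for Pou5f2. Median centring gave -0.016 for Hoxc8, 0.037 for Pou3f4 and 0.029 for Sox4, and normexp gave 0.075 for Hoxb4. The first scan alone gave -0.0084 for Pitx3, 0.0021 for Sox4 and 0.011 for Sox6. Centred replicates gave 0.052 for Pou3f4 and 0.074 for Pou5f2. Arrays with collagen in Cy5 only gave 0.20 for Dlx3, 0.072 for Foxd3, 0.0073 for Foxj2, 0.49 for Hoxb4, -0.11 for Hoxc5, 0.22 for Nkx1-2, -0.19 for Pitx3, 0.12 for Pou3f4, 0.042 for Sox4 and -0.17 for Sox7. Arrays with collagen in Cy3 only gave 0.61 for Dlx4, -0.10 for Hoxc8, -0.029 for Nkx2-6, -0.0012 for Nkx6-3, 0.61 for Pou3f1 and 0.21 for Pou5f2. The authors' deposited value table gave 0.0037 for Dlx3, 0.00064 for Dlx4, 0.026 for Nkx1-2, 0.00017 for Pou5f2 and 0.027 for Sox4. Only 15 members could be tested in it. Hoxb9 was not among them, and 1 of its 5 values there was positive. The 5 arrays without that of replicate 1 with collagen in Cy3 gave 0.081 for Hoxb4, -0.0075 for Hoxc5, 0.039 for Nkx2-9, -0.0093 for Pax7 and 0.17 for Sox4. Leaving out each replicate in turn gave -0.26 to 0.041 for Dlx4, -0.18 to 0.027 for Hoxb4, -0.017 to 1.12 for Hoxc5, -0.14 to 0.26 for Hoxc8, -0.069 to 0.17 for Pitx3, -0.23 to 0.11 for Pou3f1, -0.11 to 0.063 for Pou3f4, -0.10 to 0.13 for Pou5f2 and -0.25 to 0.16 for Sox4.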
